A study of Rattus norvegicus with 42 samples.

Results

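Pulmonary surfactant is the film of lipid and protein that lowers surface tension in the air spaces of the lung. Alveolar type 2 cells make it, store it in lamellar bodies and secrete it. Described here are 8 genes of that system in rat lung: the surfactant protein genes Sftpa1, Sftpb, Sftpc and Sftpd, and Abca3, Lamp3, Lpcat1 and Napsa, whose products load or mark lamellar bodies, remodel surfactant lipid or process surfactant proteins. They were chosen by symbol from the 30044 gene symbols shared by 2 deposited tables of read counts, 1 for each time point, and all 8 passed the filter on low counts at both times. The filter left 15234 genes at 3 months and 15276 at 9 months.

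The lungs came from 42 male Fischer 344 rats (F344/DuCrl) bought at 3 months of age. The rats ate a diet with 60% of its energy as fat (high-fat) or 18% (regular), breathed crystalline silica or air in a whole-body chamber, stayed on their diet and were killed 3 or 9 months after the exposure. Silica was given at 15 mg/m3 for 6 hours a day on 5 days. At 3 months there were 5 high-fat silica, 5 high-fat air, 5 regular-diet silica and 4 regular-diet air rats, and at 9 months 6 high-fat silica, 6 high-fat air, 5 regular-diet silica and 6 regular-diet air rats. No group carried a transgene or other allele. Each library was made from total RNA of a piece of lung, so its values sum all cell types of that piece. In such bulk tissue, more cells of a type and more RNA of a gene per cell cannot be told apart. Each time point has its own table, scaled on its own, so levels at 3 and 9 months are given side by side and only silica effects were compared between times.

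Surfactant protein A (Sftpa1) and surfactant protein D (Sftpd) are collectins, soluble lectins that bind microbes and particles and take part in surfactant turnover. Surfactant proteins B and C (Sftpb, Sftpc) are small hydrophobic proteins that help the lipid film to spread. Napsin A (Napsa) is an aspartic protease that takes part in cutting the surfactant protein B precursor. The ABC transporter Abca3 moves phospholipid into lamellar bodies, Lamp3 is a glycoprotein of the lamellar body membrane, and the acyltransferase Lpcat1 remodels phosphatidylcholine to the dipalmitoyl form that carries most of surfactant's surface activity. Some of the genes are not private to type 2 cells: club cells of the airways also express Sftpa1, Sftpb and Sftpd, and mature dendritic cells express Lamp3. Silica particles in the rat lung are a classical cause of surfactant accumulation.

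The libraries held 5143424 to 8259635 counted reads in the 3-month table and 3078216 to 8319382 in the 9-month table. The 8 genes together took between 1.41% and 3.44% of all counts of a library, so each rested on many reads in every rat. Sftpc, the defining gene of type 2 cells, had at least 5076 CPM (counts divided by library sizes that TMM had scaled) in every library, so the labelled tissue held them. Counts on 2 ribosomal RNA genes, Rnr1 and Rnr2, differed with the groups at 9 months: their mean share was 7.66% in high-fat silica, 6.21% in high-fat air, 3.67% in regular-diet silica and 1.22% in regular-diet air rats, against means of 0.957% to 1.26% at 3 months. At 9 months the share of every silica rat was also above that of every air rat of its diet. Fits with that share as a covariate left the silica calls of the 8 genes as they were, and are given beside the diet and time results whose calls they changed. Over all genes tested, the covariate lowered the number of silica calls at 9 months from 7875 to 6710 (high-fat) and from 6885 to 4561 (regular). Share and silica differed together at 9 months, so these fits cannot fully separate them.

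Silica raised most of the 8 genes on both diets and at both times. Against air, 7 of 8 were higher at 3 months on the high-fat diet (9.23% of all genes tested were called higher) and 7 of 8 on the regular diet (10.2%). At 9 months 7 of 8 were higher on the high-fat diet (26.7%) and 6 of 8 on the regular diet (24.5%), and none was lower in any of the 4 comparisons, where 8.19%, 6.6%, 24.9% and 20.6% of all genes tested were. A call is an adjusted p of at most 0.05 in edgeR's quasi-likelihood test, adjusted by the Benjamini-Hochberg method over all genes tested. The median log2 fold change of the 8 genes was 0.58 and 0.62 at 3 months and 0.95 and 0.74 at 9 months, for the high-fat and the regular diet in that order, against medians over all genes tested that lay between -0.01 and 0.00453. Sftpb was called in none of the 4 comparisons.

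Sftpa1 changed most among the surfactant protein genes. At 3 months its level was 10852, 7917, 7113, 9169 and 7886 CPM in the high-fat silica rats, against 4692, 4746, 4612, 4628 and 4739 CPM in the high-fat air rats. Regular-diet rats had 9427, 9194, 9112, 11269 and 8060 CPM after silica, against 5147, 5824, 5160 and 5888 CPM after air. Every silica rat was above every air rat on both diets, and the 5 high-fat air rats lay within a narrow band. The log2 fold change was 0.87 ± 0.09 (SE) on the high-fat diet (adjusted p = 6.32e-07) and 0.77 ± 0.10 on the regular diet (adjusted p = 1.15e-05).

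At 9 months the level of Sftpa1 was 12478 to 17627 CPM (median 14698) in the 6 high-fat silica rats, against 4833 to 6083 CPM (median 5654) in the 6 high-fat air rats. Regular-diet rats had 12311, 15015, 14694, 13184 and 12564 CPM after silica, against 5540 to 8143 CPM (median 6846) in the 6 rats after air. The groups were again apart on both diets. The log2 fold change was 1.42 ± 0.10 on the high-fat diet (2.67 times, adjusted p = 4.63e-12) and 1.00 ± 0.10 on the regular diet (adjusted p = 8.77e-09).

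Sftpd, the other lung collectin, went the same way at a smaller size. At 3 months it averaged 1263 ± 210 CPM in high-fat silica and 798 ± 23.4 CPM in high-fat air rats (SD, n = 5 each), and 1345 ± 184 CPM in regular-diet silica (n = 5) and 909 ± 104 CPM in regular-diet air rats (n = 4). At 9 months the means were 1441 ± 125 CPM in high-fat silica and 634 ± 65.7 CPM in high-fat air rats (n = 6 each), and 1316 ± 114.9 CPM in regular-diet silica (n = 5) and 764.5 ± 190 CPM in regular-diet air rats (n = 6). All silica rats were above all air rats of their diet at both times. The log2 fold changes were 0.66 ± 0.10 and 0.56 ± 0.10 at 3 months and 1.19 ± 0.11 and 0.78 ± 0.12 at 9 months, high-fat diet before regular diet, with adjusted p-values of 0.00068 or less.

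**Figure D1:**
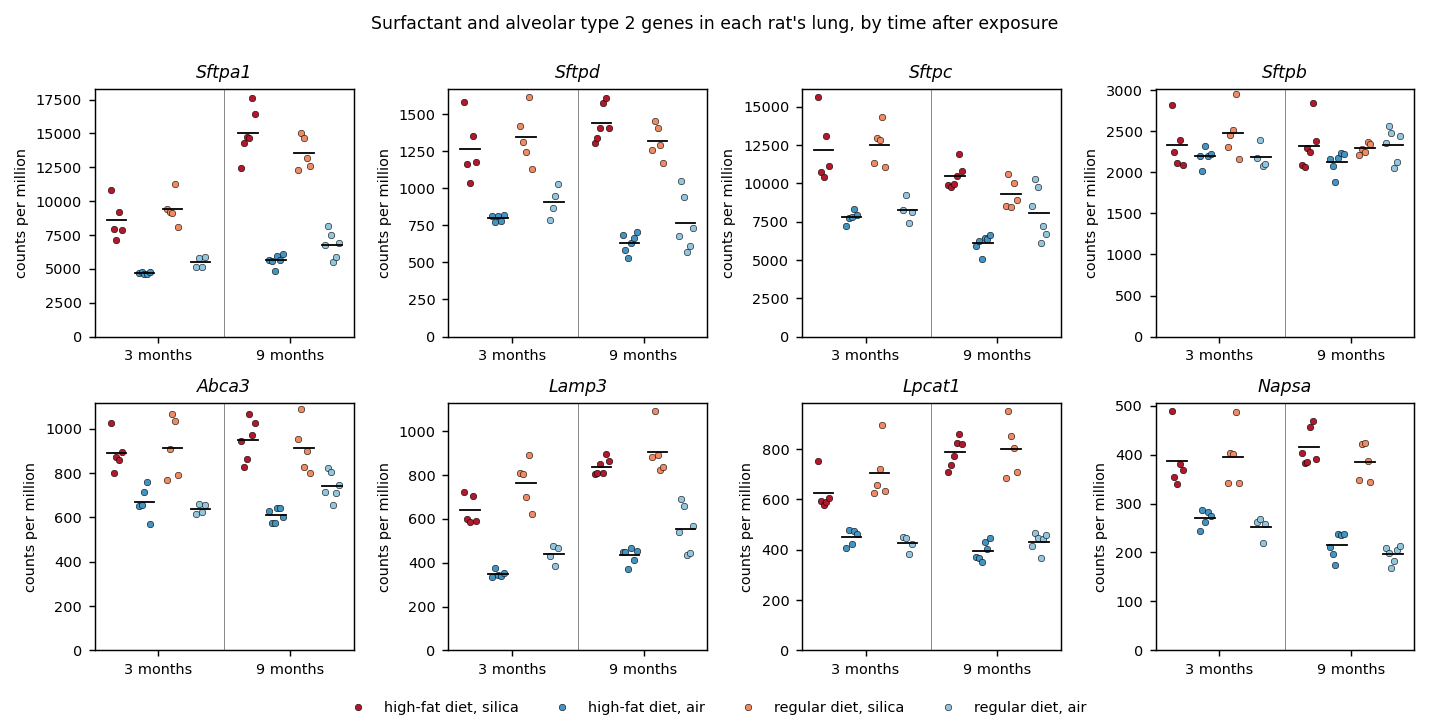
Level of each of the 8 genes in each rat, in CPM (vertical axis of each panel) by group (horizontal axis, silica left of air within each diet and time). Points are rats and bars are group means. Silica rats lie above the air rats of their diet for Sftpa1, Sftpd, Lamp3, Lpcat1 and Napsa at both times, while the Sftpb points of silica and air rats mix.

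The hydrophobic surfactant proteins behaved differently from each other. Sftpb, which lamellar bodies cannot mature without, stood at 2826, 2247, 2121, 2397 and 2096 CPM in high-fat silica rats at 3 months, against 2203, 2021, 2321, 2204 and 2230 CPM in high-fat air rats. In regular-diet rats the levels were 2305, 2451, 2512, 2962 and 2160 CPM after silica, against 2174, 2392, 2073 and 2102 CPM after air. At 9 months it was 2065 to 2851 CPM (median 2273) in the 6 high-fat silica rats, against 1879 to 2237 CPM (median 2167) in the 6 high-fat air rats. Silica and air rats overlapped on both diets at both times.

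On the regular diet at 9 months Sftpb was 2217, 2289, 2248, 2369 and 2346 CPM in the silica rats, against 2056 to 2561 CPM (median 2405) in the 6 air rats. Its log2 fold changes were 0.09 ± 0.08 (adjusted p = 0.511) and 0.18 ± 0.09 (adjusted p = 0.153) at 3 months and 0.13 ± 0.07 (adjusted p = 0.12) and -0.03 ± 0.07 (adjusted p = 0.774) at 9 months, high-fat diet before regular diet. The 95% intervals of these log2 fold changes ran from -0.07 to 0.25, from 0.01 to 0.35, from -0.01 to 0.27 and from -0.17 to 0.11. The upper bounds lie below the lower bounds of the Sftpa1 intervals, 0.69, 0.58, 1.23 and 0.80, in all 4 comparisons.

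Sftpc, the most specific type 2 cell product, was 15639, 10771, 10424, 13079 and 11113 CPM in high-fat silica rats at 3 months, against 7225, 7771, 7833, 8324 and 7929 CPM in high-fat air rats. On the regular diet it was 11337, 12974, 12824, 14349 and 11076 CPM in the silica rats, against 8281, 9225, 7406 and 8135 CPM in the air rats. The groups were apart on both diets, with log2 fold changes of 0.64 ± 0.10 (high-fat, adjusted p = 5.49e-05) and 0.60 ± 0.10 (regular, adjusted p = 0.0003).

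At 9 months Sftpc was 9744 to 11916 CPM (median 10230) in the 6 high-fat silica rats, against 5076 to 6635 CPM (median 6294) in the 6 high-fat air rats. On the regular diet it was 8556, 10629, 8478, 10064 and 8938 CPM in the silica rats, against 6115, 6672, 7213, 8557, 9790 and 10261 CPM in the air rats. The high-fat groups were apart (log2 0.78 ± 0.11, adjusted p = 1.14e-06). The regular-diet groups overlapped, with 1 of 5 silica rats above all air rats, and the log2 fold change of 0.20 ± 0.11 was not called (adjusted p = 0.14, 95% interval -0.01 to 0.42). Without regular-diet air rat 2, the highest of its group, it was called at 0.28 (adjusted p = 0.0338).

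Napsa, the protease of the set, was 341 to 489.6 CPM in high-fat silica and 243 to 288 CPM in high-fat air rats at 3 months, and 341 to 486 CPM in regular-diet silica and 219 to 268 CPM in regular-diet air rats. The 9-month levels were 382 to 468.5 CPM in high-fat silica and 174 to 238 CPM in high-fat air rats, and 343 to 424 CPM in regular-diet silica and 169 to 213 CPM in regular-diet air rats. None of these 4 pairs of ranges overlapped. Napsa rose by log2 0.52 ± 0.10 and 0.65 ± 0.10 at 3 months and by 0.94 ± 0.08 and 0.97 ± 0.08 at 9 months, high-fat diet before regular diet (adjusted p at most 0.000575).

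The lamellar body genes both rose, with larger log2 fold changes for Lamp3 than for Abca3 in all 4 comparisons. At 3 months Lamp3 was 722, 599, 584, 704 and 591 CPM in high-fat silica rats, against 335, 376, 344, 339 and 352 CPM in high-fat air rats. Regular-diet rats had 808, 805, 700, 893 and 621 CPM after silica, against 430, 478, 387 and 467 CPM after air. All silica rats were above all air rats of their diet, by log2 0.87 ± 0.08 on the high-fat diet (adjusted p = 1.54e-07) and 0.80 ± 0.09 on the regular diet (adjusted p = 2.03e-06).

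At 9 months Lamp3 was 803 to 898.5 CPM (median 831) in the 6 high-fat silica rats, against 373 to 468 CPM (median 448) in the 6 high-fat air rats. In regular-diet rats the levels were 881, 1092, 893, 823 and 837 CPM after silica, against 435.5 to 691 CPM (median 554) in the 6 rats after air. The groups stayed apart, by log2 0.95 ± 0.09 (high-fat, adjusted p = 4.45e-09) and 0.70 ± 0.10 (regular, adjusted p = 1.56e-06). At 3 months 3 mature dendritic cell markers summed to 63.8 CPM in high-fat silica and 53.4 CPM in high-fat air rats on average. On the regular diet they summed to 64.1 CPM after silica and 48.6 CPM after air. At 9 months the 5 tested summed to 45.8 CPM in high-fat silica and 29.8 CPM in high-fat air rats. Regular-diet rats then had 52.2 CPM after silica and 37.2 CPM after air. Of these markers, Cd83 rose by log2 0.85 ± 0.11 on the regular diet at 3 months. Ccr7, a receptor that defines mature dendritic cells, was not called in any of the 4 comparisons, with log2 fold changes from -0.32 to 0.20. Of the dendritic markers tested, 1 of 3 was higher on each diet at 3 months and 3 of 5 on each diet at 9 months; their part in the Lamp3 result was not tested.

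The lipid pump gene Abca3 averaged 890.0 ± 83.1 CPM in high-fat silica and 670 ± 71.4 CPM in high-fat air rats at 3 months (n = 5 each), and 915 CPM in regular-diet silica (768 to 1068 CPM, n = 5) and 639 ± 22.2 CPM in regular-diet air rats (n = 4). The 9-month means were 950.2 ± 91.3 CPM in high-fat silica and 611 ± 31.9 CPM in high-fat air rats (n = 6 each), and 915 ± 115.3 CPM in regular-diet silica (n = 5) and 743 ± 63.6 CPM in regular-diet air rats (n = 6). The log2 fold changes were 0.41 ± 0.09 (adjusted p = 0.00204) and 0.52 ± 0.09 (adjusted p = 0.000531) at 3 months, and 0.64 ± 0.07 (adjusted p = 5.26e-08) and 0.30 ± 0.08 (adjusted p = 0.00192) at 9 months, high-fat diet before regular diet. The groups overlapped only in the last of these, where 4 of 5 silica rats were above all air rats.

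Lpcat1, the acyltransferase, was 580 to 753 CPM in high-fat silica and 408 to 480.4 CPM in high-fat air rats at 3 months, and 627.5 to 897 CPM in regular-diet silica and 383 to 452 CPM in regular-diet air rats. The 9-month levels were 708 to 860.3 CPM in high-fat silica and 350.5 to 448 CPM in high-fat air rats, and 687 to 954 CPM in regular-diet silica and 366 to 465 CPM in regular-diet air rats. The ranges were apart in all 4 pairs. The log2 fold changes were 0.48 ± 0.09 (adjusted p = 0.000613) and 0.73 ± 0.10 (adjusted p = 1.43e-05) at 3 months, and 1.00 ± 0.08 (adjusted p = 6.46e-11) and 0.89 ± 0.08 (adjusted p = 1.78e-09) at 9 months.

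Counted over rats rather than by test, every silica rat was above every air rat of its diet for 7 of 8 genes on each diet at 3 months (7.37% of all genes tested on the high-fat diet and 8.77% on the regular diet), for 7 of 8 on the high-fat diet at 9 months (16.8%) and for 5 of 8 on the regular diet at 9 months (14%). The 3 exceptions in the last comparison were Sftpb, Sftpc and Abca3. Taking both diets of a time point together, the 2 silica means lay above the 2 air means for 8 of 8 genes at 3 months and 7 of 8 at 9 months. The exception was Sftpb, whose highest mean at 9 months was that of the regular-diet air rats.

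**Figure D2:**
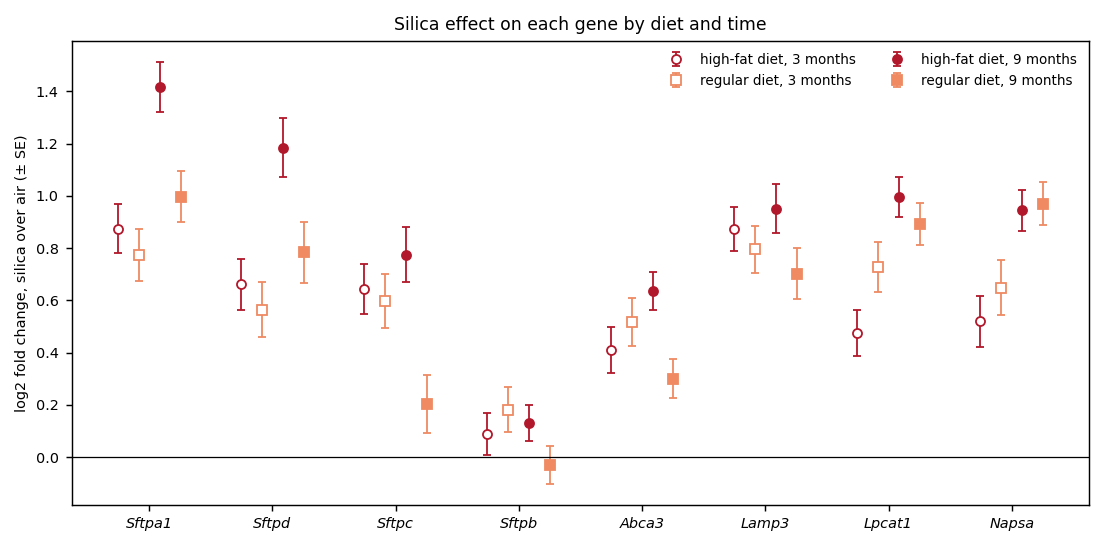
Log2 fold change of silica over air for the 8 genes (horizontal axis: genes; vertical axis: log2 fold change), with 1 point for each diet and time and error bars of 1 SE from edgeR's quasi-likelihood fit. The 4 Sftpb points lie between -0.03 and 0.18, while those of Sftpa1 lie between 0.77 and 1.42.

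Promoter sequence was at hand for 5 of the 8 genes, as the 250 bases before and 50 after the RefSeq gene start on the GRCr8 build; Sftpc, Sftpd and Napsa had no entry. The letters CAAGTG, the core of sites bound by the lung transcription factor NKX2-1, were searched on both strands, and TATAA on the gene's own strand. The windows of Sftpa1 and Lamp3 are shown because they hold CAAGTG, and that of Sftpb because the gene passed the test in none of the 4 silica comparisons. The searched letters stand in capitals. All 3 genes lie on the plus strand, at chr16:17042014-17042313 (Sftpa1), chr11:94697772-94698071 (Lamp3) and chr4:105917338-105917637 (Sftpb).
Sftpa1: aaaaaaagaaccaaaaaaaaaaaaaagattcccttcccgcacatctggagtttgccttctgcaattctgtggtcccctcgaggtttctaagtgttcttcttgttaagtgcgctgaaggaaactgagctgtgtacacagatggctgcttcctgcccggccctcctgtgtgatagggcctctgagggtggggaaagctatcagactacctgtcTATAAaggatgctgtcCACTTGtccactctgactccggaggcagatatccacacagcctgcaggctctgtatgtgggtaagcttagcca
Lamp3: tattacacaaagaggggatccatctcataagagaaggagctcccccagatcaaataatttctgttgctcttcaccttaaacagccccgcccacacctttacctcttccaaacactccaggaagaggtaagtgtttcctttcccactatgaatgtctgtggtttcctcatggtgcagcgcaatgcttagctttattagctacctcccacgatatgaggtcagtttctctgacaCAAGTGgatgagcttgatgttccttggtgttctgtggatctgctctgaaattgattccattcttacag
Sftpb: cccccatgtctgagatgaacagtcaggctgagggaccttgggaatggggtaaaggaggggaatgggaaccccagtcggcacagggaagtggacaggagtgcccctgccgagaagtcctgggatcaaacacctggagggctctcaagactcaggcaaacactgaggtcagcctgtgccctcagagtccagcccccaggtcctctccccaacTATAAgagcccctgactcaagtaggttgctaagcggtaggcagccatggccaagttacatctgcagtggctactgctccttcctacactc

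CAAGTG was found once in the Lamp3 window, on the gene's strand at bases -18 to -13 from the start, and once in the Sftpa1 window, on the opposite strand (printed as CACTTG) at bases -23 to -18. It was not found in the windows of Sftpb, Abca3 or Lpcat1. Of all 33469 promoter windows of this length, 4706 (14.1%) hold these letters on either strand. TATAA stood at bases -39 to -35 of Sftpa1 and -40 to -36 of Sftpb, and 18.4% of all windows hold it. Another motif, TGTTTAC of forkhead factors, was in none of the 5 windows, and 3.78% of all windows hold it on either strand. Such matches are descriptions of letters, not of bound sites.

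The unequal response of the genes was measured within each rat, as the ratio of the counts of 2 genes of the same library, which library size and scaling cannot move. All 28 pairs of the 8 genes were compared between silica and air rats in the 4 comparisons by exact 2-sided permutation tests, with p-values adjusted over all pairs and comparisons. The ratio differed in 18 of 28 pairs on the high-fat diet and 8 of 28 on the regular diet at 3 months, and in 24 and 18 of 28 at 9 months. Of the 7 pairs with Sftpb, 7 (high-fat) and 7 (regular) differed at 3 months and 7 and 6 at 9 months. Of the 21 pairs without it, 11 and 1 differed at 3 months and 17 and 12 at 9 months. The pairs share genes and so are not independent. Pairs of other genes were not tested, so there is no general share to set beside these counts. The smallest p the tests could give was 0.00794 and 0.0159 at 3 months and 0.00216 and 0.00433 at 9 months, high-fat diet before regular diet. These floors follow from the group sizes and limit how many pairs can pass. The counts of pairs therefore cannot be compared between diets or times.

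The log2 ratio of Sftpa1 to Sftpb averaged 1.87 ± 0.09 in high-fat silica and 1.09 ± 0.09 in high-fat air rats at 3 months (SD, n = 5 each), and 1.93 ± 0.06 in regular-diet silica (n = 5) and 1.33 ± 0.11 in regular-diet air rats (n = 4). At 9 months it averaged 2.69 ± 0.09 in high-fat silica and 1.40 ± 0.05 in high-fat air rats (n = 6 each), and 2.56 ± 0.14 in regular-diet silica (n = 5) and 1.53 ± 0.09 in regular-diet air rats (n = 6). The groups did not overlap in any of the 4 comparisons, and the exact permutation p, adjusted over all pairs and comparisons, was 0.0168, 0.0265, 0.0131 and 0.0131 in the order given. The ratio was 1.71 and 1.51 times as high with silica at 3 months and 2.45 and 2.04 times at 9 months.

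The 2 hydrophobic proteins also parted. The log2 ratio of Sftpc to Sftpb averaged 2.38 in high-fat silica and 1.83 in high-fat air rats at 3 months, and 2.34 in regular-diet silica and 1.92 in regular-diet air rats. The 9-month means were 2.18 in high-fat silica and 1.52 in high-fat air rats, and 2.02 in regular-diet silica and 1.77 in regular-diet air rats. The first 3 pairs of groups did not overlap, and the last did (exact permutation p = 0.0519, adjusted 0.0797).

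Sftpa1 also rose on average relative to Sftpc in all 4 comparisons, and the rise passed the test in 3. Their log2 ratio averaged -0.51 in high-fat silica and -0.74 in high-fat air rats at 3 months (adjusted exact permutation p = 0.0168), and -0.41 in regular-diet silica and -0.58 in regular-diet air rats (adjusted p = 0.0948). At 9 months it averaged 0.52 in high-fat silica and -0.12 in high-fat air rats, and 0.54 in regular-diet silica and -0.24 in regular-diet air rats, both with no overlap (adjusted exact permutation p = 0.0131).

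**Figure D3:**
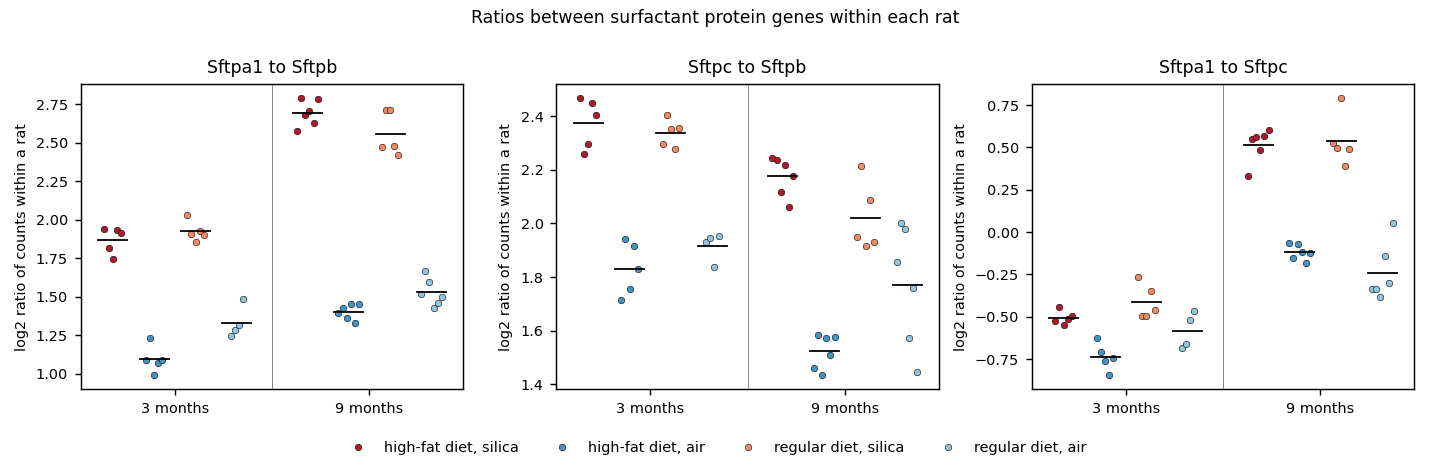
Log2 ratio of the counts of 2 genes in the same library, 1 point per rat, with a bar at the group mean (vertical axis: log2 ratio; horizontal axis: groups, silica left of air). Panels show Sftpa1 to Sftpb, Sftpc to Sftpb and Sftpa1 to Sftpc. The Sftpa1 to Sftpb ratio of every silica rat is above that of every air rat of its diet and time.

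Within groups the 8 genes tended to move together from rat to rat, though not in every rat. High-fat air rat 2 at 3 months, for example, was highest of its group in 4 genes and lowest in 2. High-fat silica rat 1 at 3 months had the highest level of its group in 8 of 8 genes, and high-fat air rat 3 at 9 months the lowest in 8 of 8. Regular-diet air rat 2 at 9 months was highest in 7 and rat 4 of the same group lowest in 7. Regular-diet silica rat 4 at 3 months and high-fat silica rat 5 at 9 months were each highest in 7 genes. After subtracting group means, the correlation of each gene's log2 level with the mean of the other 7 ran from 0.626 (Abca3) to 0.908 (Sftpa1) over the 42 rats, a description over libraries that share their scaling. Sftpb had 0.814 on this basis. With only the time-point mean subtracted, which leaves the silica and diet differences in, Sftpb had 0.561 and the other 7 genes had 0.886 (Napsa) to 0.966 (Sftpa1). Sftpb thus had a lower correlation with the rest when group differences were left in, and the other 7 genes a higher one.

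**Figure D4:**
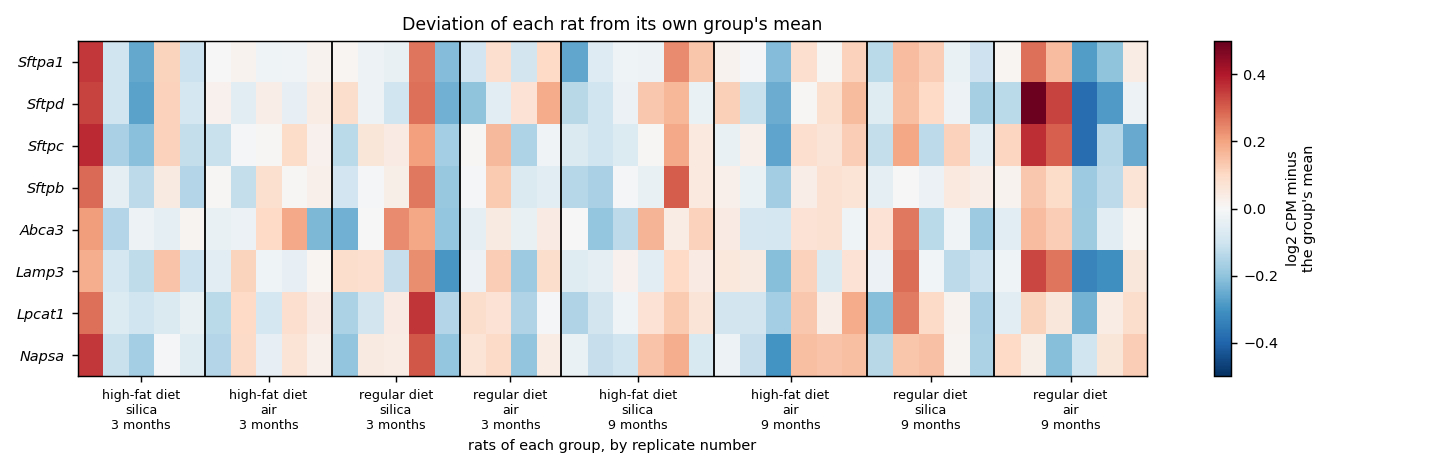
Deviation of each rat's log2 CPM from its group mean (colour scale, log2 units) for the 8 genes (rows) in each of the 42 rats (columns, by group). Single columns have 1 colour from top to bottom, such as high-fat silica rat 1 at 3 months (above its group mean in all genes) and high-fat air rat 3 at 9 months (below it in all genes).

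The diets were next compared in air-breathing rats. At 3 months 1 of 8 genes was called, lower on the high-fat diet (2.95% of all genes tested were called, 1.3% lower). It was Lamp3, with the values given above for both air groups: all 5 high-fat rats were below all 4 regular-diet rats (log2 -0.34 ± 0.09, adjusted p = 0.0462). That call was lost when any of 7 of the 9 air rats was left out and with the ribosomal RNA share as covariate (adjusted p = 0.15). All 5 high-fat air rats were also below all 4 regular-diet air rats in Sftpa1 (log2 -0.23 ± 0.10, adjusted p = 0.175), so 2 of 8 genes did not overlap, where 9.96% of all genes tested did not.

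At 9 months 3 of 8 genes were called in air rats, all lower on the high-fat diet (15.2% of all genes tested were called, 7.06% lower). Sftpc was 5076 to 6635 CPM in high-fat air and 6115 to 10261 CPM in regular-diet air rats (log2 -0.40 ± 0.11, adjusted p = 0.0106), an overlap. Abca3 was 574 to 644.5 CPM in high-fat air and 654 to 823 CPM in regular-diet air rats, with no overlap (log2 -0.28 ± 0.07, adjusted p = 0.00905). Lamp3 was 373 to 468 CPM in high-fat air and 435.5 to 691 CPM in regular-diet air rats (log2 -0.36 ± 0.09, adjusted p = 0.00981). Abca3 was the only one of the 8 without overlap, against 6.05% of all genes tested.

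The other 5 genes did not pass edgeR's test in air rats at 9 months. Sftpa1 lay at log2 -0.27 ± 0.09 (adjusted p = 0.0508), and passed by DESeq2 (adjusted p = 0.0139), by voom (0.017) and in 4 other fits (0.0349 to 0.0458). Sftpd lay at -0.27 ± 0.11 (adjusted p = 0.104), Sftpb at -0.14, Lpcat1 at -0.13 and Napsa at 0.13. The ribosomal RNA share of the 2 air groups also differed, at 4.62% to 7.19% in the high-fat and 0.375% to 2.29% in the regular-diet rats, with no overlap. With that share as covariate none of the 8 genes was called (adjusted p = 0.77 for Sftpc, 0.884 for Abca3 and 0.865 for Lamp3), and over all genes 1 was called, against 2325 without it, so share and diet cannot be told apart in these rats.

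In silica-exposed rats, 0 of 8 genes were called between the diets at either time, and DESeq2 and voom also called 0. At 3 months 0.702% of all genes tested were called, and 1 of the 8, Lamp3, had an unadjusted p below 0.05 (log2 -0.26 ± 0.08, adjusted p = 0.181). At 9 months 3.52% were called and none of the 8 had an unadjusted p below 0.05 by edgeR; their log2 differences, high-fat minus regular diet, ran from -0.11 (Lamp3) to 0.17 (Sftpc, adjusted p = 0.463), and the groups overlapped for all 8 (3.17% of all genes tested did not). As an example, Sftpc at 9 months averaged 10476 ± 809 CPM in high-fat silica (n = 6) and 9333 ± 962 CPM in regular-diet silica rats (n = 5), but 6119 ± 563 CPM in high-fat air and 8102 ± 1703 CPM in regular-diet air rats (n = 6 each).

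Whether silica acted differently on the 2 diets was tested as the difference of the log2 fold changes, high-fat minus regular diet. At 3 months none of the 8 genes was called by edgeR, DESeq2 or voom, and 0 had an unadjusted p below 0.05 by edgeR (0% of all genes tested were called), and the differences ran from -0.25 (Lpcat1) to 0.10. At 9 months 0 of 8 were called (1.09% of all genes tested), and 4 had an unadjusted p below 0.05. The largest was Sftpc at 0.57 ± 0.15 (adjusted p = 0.0629), then Sftpa1 at 0.42 ± 0.14 (adjusted p = 0.132), Sftpd at 0.40 ± 0.16 (adjusted p = 0.249) and Abca3 at 0.34 ± 0.10 (adjusted p = 0.112). DESeq2 called 3 of these, at adjusted p-values of 0.00824 for Sftpc, 0.0331 for Sftpa1 and 0.046 for Abca3, so the larger silica effect on the high-fat diet depended on the test used.

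The silica effect was next compared between times, as 9 minus 3 months in 1 fit of all 8 groups over 15759 genes. On the high-fat diet 4 of 8 genes had a larger effect at 9 months (6.55% of all genes tested were called higher, 10.7% in either direction). They were Sftpa1 with a difference of 0.55 ± 0.13 (adjusted p = 0.00614), Sftpd with 0.53 ± 0.16 (adjusted p = 0.0257), Lpcat1 with 0.52 ± 0.12 (adjusted p = 0.00423) and Napsa with 0.43 ± 0.13 (adjusted p = 0.0274). Sftpb, Sftpc, Abca3 and Lamp3 differed by 0.04, 0.14, 0.23 and 0.08 and were not called. Napsa and Sftpd were no longer called with the ribosomal RNA share as covariate (adjusted p = 0.0806 and 0.0639) or without single rats, among them high-fat air rat 3 at 9 months (0.0757 and 0.0601) and high-fat silica rat 3 at 3 months (0.0887 and 0.08).

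On the regular diet 0 of 8 genes were called between times (6.78% of all genes tested were), and 2 had an unadjusted p below 0.05 by edgeR; DESeq2 and voom also called 0. Sftpc had a smaller silica effect at 9 months by -0.40 ± 0.16 (adjusted p = 0.12) and Napsa a larger one by 0.31 ± 0.14 (adjusted p = 0.167). Without regular-diet air rat 4 at 9 months Sftpc was called at -0.49 (adjusted p = 0.0344). Whether the change over time differed between the diets was not tested.

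Other genes of the type 2 cell and of surfactant metabolism were read from lists of known members. The counts that follow stand against all genes tested, of which 9.23% and 10.2% were higher and 8.19% and 6.6% lower with silica at 3 months, and 26.7% and 24.5% higher and 24.9% and 20.6% lower at 9 months, high-fat diet before regular diet. Of 11 other type 2 cell genes tested, 8 were higher and 1 lower with silica on each diet at 3 months, and 10 higher on the high-fat and 8 on the regular diet at 9 months with 1 lower on each. Their median log2 fold changes were 0.37 (high-fat) and 0.33 (regular) at 3 months and 0.57 and 0.39 at 9 months. The mucin Muc1 rose by 1.01 ± 0.10 and 0.99 ± 0.11 at 3 months and by 1.83 ± 0.09 and 1.67 ± 0.10 at 9 months. Ctsh, a cathepsin that takes part in processing surfactant proteins B and C, rose by 0.84 ± 0.10 and 0.85 ± 0.11 and then by 1.72 ± 0.09 and 1.46 ± 0.10. The lower gene was Acoxl, an acyl-CoA oxidase-like gene, at -0.90, -0.73, -1.72 and -1.33.

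Among 11 transcription factors of the alveolar epithelium, 2 were higher and 1 lower on the high-fat and 3 higher and 2 lower on the regular diet at 3 months, and 6 higher and 3 lower on the high-fat and 6 higher and 4 lower on the regular diet at 9 months. Elf3, an epithelial ETS factor, rose by 0.98 ± 0.13 and 0.87 ± 0.14 at 3 months and by 1.68 ± 0.09 and 1.33 ± 0.10 at 9 months. Nkx2-1, which drives surfactant protein genes, rose by 0.41 ± 0.10 (adjusted p = 0.00652) and 0.37 ± 0.11 (adjusted p = 0.0245) at 3 months and by 0.84 ± 0.11 and 0.40 ± 0.12 at 9 months, high-fat diet before regular diet. Nfib fell by 0.16, 0.23, 0.39 and 0.35 on the log2 scale in the same order.

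The lipid part of surfactant was read from genes of fatty acid supply and of phosphatidylcholine synthesis. Of 9 fatty acid genes tested, 5 were higher on each diet at 3 months, and at 9 months 8 were higher and 1 lower on the high-fat diet and 7 higher and 1 lower on the regular diet. The fatty acid binding protein gene Fabp5 rose by 1.14 ± 0.13 and 1.26 ± 0.13 and then by 1.58 ± 0.13 and 1.49 ± 0.14, and the synthase gene Fasn by 0.73 ± 0.12 and 1.06 ± 0.14 and then by 1.27 ± 0.11 and 0.82 ± 0.12. Of the phosphatidylcholine genes, 1 (high-fat) and 3 (regular) of 16 were higher at 3 months, and at 9 months 8 of 15 were higher and 3 lower on the high-fat and 6 of 15 higher on the regular diet. The 3-month shares of this list lay near those of all genes. Gpam, a mitochondrial glycerol-phosphate acyltransferase gene, was called in all 4 comparisons, at 0.20, 0.35, 0.24 and 0.34.

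Of 11 genes of lamellar body traffic and secretion, 4 were higher and 1 lower on each diet at 3 months, and at 9 months 8 higher and 2 lower on the high-fat and 7 higher and 2 lower on the regular diet. P2ry2, the ATP receptor that triggers surfactant secretion, rose by 1.19 ± 0.14 and 1.15 ± 0.15 and then by 1.84 ± 0.11 and 1.27 ± 0.12. Gpr116, a receptor that in mice restrains surfactant pool size, was lower by log2 -0.31, -0.29, -0.59 and -0.56. Most endothelial markers were also lower in these comparisons, and which cells the Gpr116 change came from was not tested. Of 10 genes of surfactant clearance by macrophages, 5 were higher and 2 lower on the high-fat and 5 higher on the regular diet at 3 months, and 8 higher and 2 lower on the high-fat and 5 higher and 2 lower on the regular diet at 9 months. Csf2rb, a subunit of the GM-CSF receptor whose loss causes alveolar proteinosis, rose by 0.83 ± 0.11 and 0.79 ± 0.11 and then by 1.75 ± 0.10 and 1.74 ± 0.11.

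**Figure D5:**
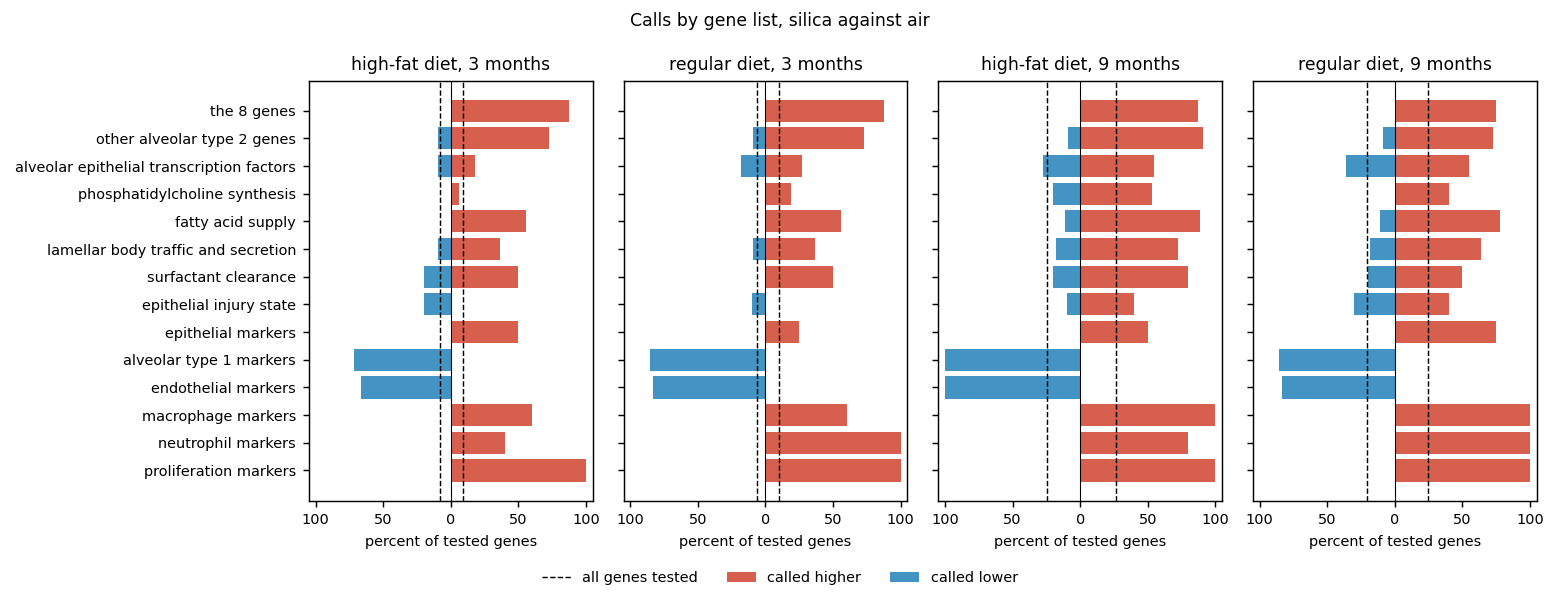
Percent of the tested genes of each list that edgeR called higher (right) or lower (left) with silica than with air, for each diet and time. Dashed lines give the same percent over all genes tested. The bars of the 8 surfactant genes stand for 6 of 8 on the regular diet at 9 months and 7 of 8 in the other 3 comparisons, all higher.

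Markers of other cell types moved in the same comparisons, and their part in the results was not tested. Of 7 alveolar type 1 markers, 5, 6, 7 and 6 were lower with silica (high-fat and regular diet at 3 months, then at 9 months), and their summed level averaged 3649 CPM in high-fat silica and 4395 CPM in high-fat air, and 3730 CPM in regular-diet silica and 4633 CPM in regular-diet air rats at 3 months. At 9 months it averaged 3845 CPM in high-fat silica and 4971 CPM in high-fat air, and 3782 CPM in regular-diet silica and 5157 CPM in regular-diet air rats. Of 4 general epithelial markers, 2, 1, 2 and 3 were higher. Of 5 club cell markers none was higher, and 2 (high-fat) and 1 (regular) were lower at 9 months, while Scgb1a1, the defining club cell product, had log2 fold changes between -0.46 and -0.20. Of 6 endothelial markers, 4, 5, 6 and 5 were lower in the same order.

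Among markers of inflammatory cells, 3 of 5 macrophage markers were higher on each diet at 3 months and 6 of 6 on each at 9 months. Of 5 neutrophil markers, 2 (high-fat) and 5 (regular) were higher at 3 months and 4 and 5 at 9 months, and of 4 B cell markers 0 were called in any of the 4 comparisons by edgeR, with 1 unadjusted p below 0.05 (high-fat diet, 3 months). The macrophage markers summed to 402.4 to 502 CPM in high-fat silica and 284.6 to 344 CPM in high-fat air rats at 3 months, and to 644 to 796 CPM in high-fat silica and 304 to 394 CPM in high-fat air rats at 9 months. On the regular diet they summed to 489 to 822 CPM in silica and 360 to 449.8 CPM in air rats at 3 months, and to 725 to 984 CPM in silica and 405 to 563 CPM in air rats at 9 months. The neutrophil markers summed to means of 505 and 991 CPM in high-fat silica rats at 3 and 9 months, against 176 and 221.5 CPM in high-fat air rats, and to 660 and 823 CPM in regular-diet silica rats, against 155 and 186 CPM in regular-diet air rats. All 4 markers of dividing cells were higher in all 4 comparisons. Levels of the 8 surfactant genes are shares of all RNA, so any change in other cells also enters them.

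The genes most like the 8 across the 42 rats were ranked by the Pearson correlation of their log2 level with the mean of the 8, among 12483 genes. With the time-point mean subtracted these were Lyz2 (0.969), Fasn (0.966), Cd63 (0.965), Abcg1 (0.963), Ly6i (0.961) and Npc2 (0.959). With the group mean subtracted, which removes the silica and diet differences, they were Npc2 (0.911), Ctsh (0.888), Avpi1 (0.861), Cxcl3 (0.849), Cd63 (0.843) and C2 (0.843). Npc2, a lysosomal cholesterol carrier, and Cd63, a lysosomal membrane tetraspanin, stood on both lists.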

How the data were processed

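The authors deposited raw read counts per gene symbol, 1 table per time point and 1 column per rat, per the file headers. Per the labels' protocols, RNA was prepared as stranded total RNA libraries depleted of ribosomal RNA. Per the submitters' processing notes, the tools were HTSeq 0.6.1, TopHat2 2.0.9 with Bowtie2 2.2.9, Trimmomatic 0.35, bcl2fastq 2.19 and SAMtools 0.1.19, with build Rnor_6.0, in no stated order; the strand setting and annotation are not given in the sources used here, so counts of overlapping or near-identical genes are uncertain. All 42 libraries were used. Within a table, counts were filtered (filterByExpr), scaled by TMM and fitted with 1 coefficient per group in edgeR 4.0.16 (R 4.3.3), with Benjamini-Hochberg adjustment over all genes and a threshold of 0.05. Differences between times came from 1 fit of both tables. The tests were checked on simulated counts. CPM values use TMM-scaled library sizes. Ratios of 2 genes were added after the data were seen. No 2 libraries were copies (chi-square per degree of freedom at least 1.93). The labels give no batch or date.

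The 8 genes, the other lists and the tests were chosen with earlier results of these data known. From each other list, the text names some of the up to 3 genes with the smallest p in a comparison, with their values in the other comparisons. The called genes of a list are not all named, also where 5 or fewer were called. Acoxl and Nkx2-1 are also named beyond that rule where a comparison did not select them, as are Scgb1a1 and Ccr7 as defining markers. Alternatives were DESeq2 1.42.0, limma 3.58.1 (voom), edgeR's legacy quasi-likelihood fit, RLE size factors, no filter, the ribosomal RNA share as covariate, the ribosomal rows or the 8 genes left out of the scaling, only the compared groups, and each rat left out. Promoters are RefSeq sequences on GRCr8; the TATAA motif was chosen after the sequences were seen.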

Additional observations from a re-analysis of the deposited data

Results flagged for a closer look

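Of 72 sets of 4 to 6 values tested for a value far from the rest of its group, 3 were flagged, where chance flags about 1 in 20. Lamp3 stood at 1092 CPM in regular-diet silica rat 2 at 9 months, above the other 4 rats of its group at 823 to 893 CPM. Lpcat1 stood at 753 CPM in high-fat silica rat 1 at 3 months, where the other 4 rats had 580 to 606 CPM, and Napsa at 489.6 CPM in the same rat, where the others had 341 to 381 CPM. That rat was highest of its group in all 8 genes.

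The silica effect on the high-fat diet was larger at 9 than at 3 months in edgeR's test of the difference for Sftpa1 (log2 0.55), Sftpd (0.53), Lpcat1 (0.52) and Napsa (0.43). With the ribosomal RNA share as covariate, Sftpd and Napsa were no longer called in that test (adjusted p = 0.0639 and 0.0806). Both calls were also lost without some of the single rats.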

How the results depend on the processing

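The silica calls of the 8 genes (7 and 7 of 8 at 3 months, 7 and 6 at 9 months, high-fat diet first) did not change in number under any alternative tried except without single rats on the regular diet at 9 months, which gave 6 to 7 (7 without air rat 2). Diet calls moved. In air rats at 3 months the count of 1 became 2 with only the groups compared, 0 with the ribosomal RNA share as covariate and 0 to 1 without single rats. In air rats at 9 months the count of 3 became 4, with Sftpa1, by DESeq2, voom, the legacy quasi-likelihood fit, RLE size factors, no filter or the 8 genes left out of the scaling, 0 with that covariate and 3 to 5 without single rats (5 without regular-diet air rat 4 or 5). The difference of silica effects between diets at 9 months, with 0 called, gave 3 by DESeq2, 1 by voom, 1 with no filter and 0 to 2 without single rats (2 without regular-diet silica rat 2). Between times, the count of 4 on the high-fat diet became 2 with the covariate and 2 to 4 without single rats, and the count of 0 on the regular diet became 0 to 1. The cause was not tested.

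Some values turned sign, all of them uncalled as reported except Foxa1 and Lyst. With the covariate these were Sftpb (-0.033) for diet in air at 3 months and, at 9 months, Foxa1 (-0.048), Lyst (0.071) and Napsa (-0.138) for diet in air, Napsa (-0.109), Sftpb (-0.164) and Sftpd (-0.053) for diet under silica, and Napsa (0.029) for the difference of silica effects. With voom it was Sftpc (-0.011) for that difference at 3 months. Without single rats the ranges that crossed 0 were -0.025 to 0.053 for Sftpb (diet in air, 3 months), -0.096 to 0.023 for Abca3, -0.13 to 0.054 for Napsa and -0.141 to 0.018 for Sftpc (diet under silica, 3 months), -0.061 to 0.10 for Sftpc (difference of silica effects, 3 months), -0.076 to 0.045 for Lpcat1 and -0.057 to 0.048 for Sftpb (diet under silica, 9 months), -0.080 to 0.014 for Napsa (difference of silica effects, 9 months) and -0.024 to 0.092 for Sftpb (9 minus 3 months, high-fat diet). No paired analysis was possible because the rats were numbered in accession order and no animal was shared between groups. Each of the 8 genes had at least 780 counts in every rat.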

Other observations

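Of the genes of the epithelial injury state, none passed the test as higher with silica at 3 months. Over all genes tested 9.23% (high-fat) and 10.2% (regular) were higher and 8.19% and 6.6% lower, so the counts of this short list lay near those shares. Of 10 tested, 0 were higher and 2 lower on the high-fat diet (Krt7 at log2 -0.35 and Krt8 at -0.22) and 0 higher and 1 lower on the regular diet (Krt18 at -0.36). At 9 months 4 were higher and 1 lower on the high-fat and 4 higher and 3 lower on the regular diet. Over all genes tested 26.7% and 24.5% were then higher and 24.9% and 20.6% lower, high-fat diet before regular diet. Among the genes that rose, the claudin gene Cldn4 did so by 1.11 ± 0.20 and 1.53 ± 0.21, and Areg, an EGF receptor ligand, by 1.37 ± 0.30 and 1.13 ± 0.36, high-fat diet before regular diet. The genes lower at 9 months are not named here. The 10 genes then summed to 762.4 CPM in high-fat silica and 766.8 CPM in high-fat air rats on average. Regular-diet rats had 759.5 CPM after silica and 842.5 CPM after air. Of the other collectins 1 of 5 was tested: Colec12, a scavenger receptor of endothelial cells, fell by 0.25, 0.31, 0.73 and 0.62 on the log2 scale while Sftpa1 and Sftpd rose.

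Genes of surfactant clearance were lower on the high-fat diet in air rats at 9 months, 5 of 10 tested (7.06% of all genes tested were lower), among them the lipid transporter gene Abcg1 (-0.44 ± 0.07) and Pparg (-0.52 ± 0.13), and 4 of 6 macrophage markers were lower in the same rats. Cldn18, from the list of other type 2 cell genes, was higher there (0.80 ± 0.08). The ribosomal RNA share differed between these groups. With it as a covariate 1 of 15276 genes was called, against 2325 without it, and Abcg1, Pparg and Cldn18 were not called, so share and diet cannot be told apart.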
